A study of Mus musculus with 4 samples.

Results

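The 10 S100 genes described here (S100a3, S100a4, S100a6, S100a8, S100a9, S100a10, S100a11, S100a13, S100a14 and S100a16) were taken by symbol from the 32286 features of a spatial transcriptome of mouse dorsal skin, and all 10 were found. S100 proteins are small calcium sensors that usually work as dimers: calcium opens a pocket in each subunit, which then grips a target such as an annexin. Many of their genes lie in the epidermal differentiation complex, beside the genes of the cornified envelope and the S100-fused proteins filaggrin and trichohyalin. In skin the family is known for S100a3 in the hair cuticle, for the S100a8 and S100a9 pair (calprotectin) of neutrophils and inflamed keratinocytes, and for S100a4 in fibroblasts and migrating leukocytes.

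All tissue came from R26-tdTomato; Krox20-CreERT mice, in which the recombinase is made from the Krox20 locus and marks the cells that express it with a red reporter, given 4-hydroxytamoxifen at P2 and sampled at P38. A capture slide lays a grid of barcoded spots under the section, and each spot counts the transcripts (unique molecular identifiers, UMIs) of all cells above it. The 4 slices (capture areas) each held a section of the same 3 mice, so the slices are technical replicates: SDs and p-values over them measure the spread between sections of the same animals, and no group lacked the transgenes or the induction. The study left a further section, of distorted structure, out of its own analysis. All deposited spots entered here, the labels do not assign spots to sections, and whether any spot of that section is among them was not tested. After 9 of 6420 spots with fewer than 250 genes were left out, 6411 spots remained, with a median of 11662 to 14627 UMIs per slice. Spot barcodes are positions on the grid, so the 750 barcodes found in all slices are not shared cells.

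Each level below is in CPM: a gene's UMIs, summed over the spots of a region in 1 slice, are divided by the UMIs of all genes there and put on the usual CPM scale. Spots were clustered without any S100 gene, and 9 regions are named here by leading genes. They ran from the surface down as Lor/Krt10 (848 spots, cornified epidermal genes, with dermal genes in the same spots), Atp12a/Plet1 (740 spots, upper follicle genes), Cidea/Scd3 (258 spots, sebaceous genes), Gpx2/Krt14 (1064 spots, basal keratinocyte and follicle genes), Krtap4 (691 spots, late shaft and cuticle genes) and Krt32/Krt31 (841 spots, early shaft and inner root sheath genes), followed by Dct/Tyrp1 (103 spots, pigment cell genes), Mki67/Top2a (973 spots, dividing cells) and Acta1/Myl1 (746 spots, muscle). Marker lists of neighbouring follicle layers ran together. The inner root sheath and the matrix and shaft lists stood 1.15 and 1.09 (mean log2 fold of the list's genes against the other spots) in Krt32/Krt31, and the hair cuticle list 0.38 there and 0.84 in Krtap4, so the regions called shaft also hold sheath and cuticle. The list with the highest value in Krtap4 was that of stressed keratinocytes (Krt6a, Krt6b, Krt16, Krt17, Sprr2d and Sprr2h), at 0.90. The matrix and shaft list stood only 0.38 in Krtap4. A spot holds several cells, so more cells of a type and more RNA per cell cannot be told apart. No cluster was led by fibroblast genes, so dermis was compared with spots assigned to the marker list on which they scored highest (309 spots for dermis, with 41.4% of them inside the Lor/Krt10 cluster).

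The 10 genes lie on mouse chromosome 3 (GRCm38) in 2 blocks. The block of 8 covers 181287 bases, from S100a13 at chr3:90514435-90524581 through S100a14 (chr3:90526856-90528837), S100a16 (chr3:90537254-90543151), S100a3 (chr3:90560578-90602702), S100a4 (chr3:90603771-90606045), S100a6 (chr3:90612882-90624181) and S100a8 (chr3:90668978-90670035) to S100a9 (chr3:90692632-90695721), which alone lies on the minus strand. S100a11 (chr3:93520488-93526287) and S100a10 (chr3:93555080-93564643) form the other block, 2824766 bases away, with the S100-fused genes between. Gm42674 overlaps both S100a3 and S100a4 on the same strand, and its share of their reads was not tested. The annotated S100a3 gene spans S100a2 on the same strand, so their reads could be mixed. S100a2 held 116 UMIs in all, against 251690 for S100a3.

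Neighbours in the first block had unlike patterns, so the promoter windows of S100a3 (early shaft), S100a4 (surface) and of S100a8 and S100a9 (Krtap4 region) are shown side by side, each with 250 bases before and 50 after the RefSeq start site on GRCm38.p6. Capitals mark matches, on either strand, to the letters TATAAA of the TATA box, to the letters TGANTCA bound by AP-1, to the letters CTTTGA bound by LEF1 and TCF factors, to the Krox20/EGR motif GCGNGGGCG and to the C/EBP motif TTGCNNAA, and none of the matches overlap.
S100a3, chr3:90599964-90600263, plus strand: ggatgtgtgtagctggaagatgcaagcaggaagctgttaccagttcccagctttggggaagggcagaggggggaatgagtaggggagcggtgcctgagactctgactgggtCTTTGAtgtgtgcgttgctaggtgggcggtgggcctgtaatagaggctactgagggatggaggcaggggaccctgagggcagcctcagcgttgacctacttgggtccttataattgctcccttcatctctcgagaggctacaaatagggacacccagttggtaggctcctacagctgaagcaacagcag
S100a4, chr3:90603520-90603819, plus strand: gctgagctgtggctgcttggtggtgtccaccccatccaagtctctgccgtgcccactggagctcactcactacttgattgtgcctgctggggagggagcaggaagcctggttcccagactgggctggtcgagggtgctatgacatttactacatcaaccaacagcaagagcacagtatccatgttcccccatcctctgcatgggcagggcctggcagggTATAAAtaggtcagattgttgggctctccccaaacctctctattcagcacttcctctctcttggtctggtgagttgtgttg
S100a8, chr3:90668821-90669120, plus strand: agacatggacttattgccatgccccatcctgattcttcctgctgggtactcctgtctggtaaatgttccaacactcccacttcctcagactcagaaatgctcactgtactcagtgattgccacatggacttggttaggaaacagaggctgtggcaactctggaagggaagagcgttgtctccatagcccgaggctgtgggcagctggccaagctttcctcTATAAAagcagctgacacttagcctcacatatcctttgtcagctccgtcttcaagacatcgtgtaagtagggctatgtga
S100a9, chr3:90695672-90695971, minus strand: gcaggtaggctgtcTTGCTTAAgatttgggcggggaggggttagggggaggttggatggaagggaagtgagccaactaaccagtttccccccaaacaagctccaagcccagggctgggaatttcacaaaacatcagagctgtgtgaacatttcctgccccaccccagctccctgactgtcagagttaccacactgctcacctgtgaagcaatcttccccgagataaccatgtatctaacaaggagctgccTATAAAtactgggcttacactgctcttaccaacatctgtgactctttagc
The S100a4 and S100a8 windows hold TATAAA, beginning 31 and 30 bases before the start site, and in the S100a9 window the match begins at the start site itself. The S100a3 window shown does not hold it, but the window of another S100a3 start site does, 52 bases before that site. TATAAA occurs in 13.6% of the 32851 promoter windows of that length, CTTTGA (in the S100a3 window, 139 bases before its start) in 16.003%, TTGCNNAA (in the S100a9 window) in 10.8%, TGANTCA in 7.81% and GCGNGGGCG in 5.55%. No member window holds GCGNGGGCG, and these are letter matches only. The table held windows for 8 members, with several start sites for S100a3 and S100a16.

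S100a3 and S100a14 were highest in Krt32/Krt31, S100a8 and S100a9 in Krtap4, and S100a6 in Gpx2/Krt14 and the upper follicle. S100a4, S100a10 and S100a11 were highest at the surface and S100a13 in the sebaceous region, while S100a16 differed little from place to place. The ratio of the highest to the lowest region mean was 39.9 for S100a4, 26.8 for S100a9 (whose lowest region, Dct/Tyrp1, held 9 UMIs in all), 7.73 for S100a8, 7.58 for S100a3 and 4.05 for S100a6. It was 3.18 for S100a13, 2.30 for S100a14, 2.07 for S100a11, 1.64 for S100a10 and 1.57 for S100a16.

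**Figure D1:**
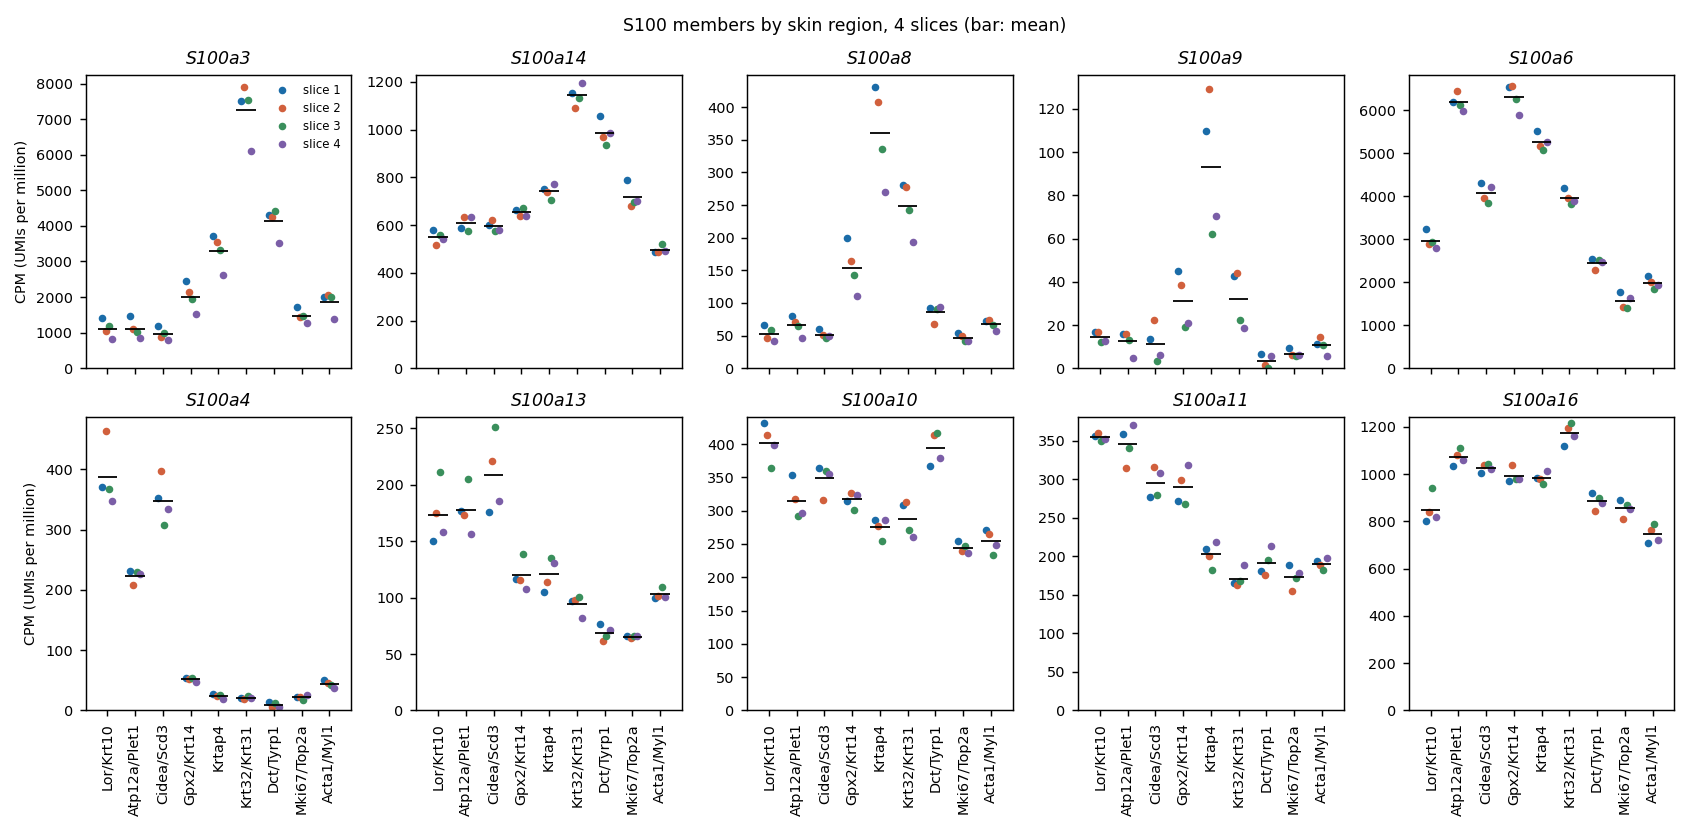
Level of each member (y axis, CPM) in 9 regions ordered from the surface down (x axis), with a point for each of the 4 slices and a bar at their mean. S100a3 and S100a14 were highest in Krt32/Krt31, S100a8 and S100a9 in Krtap4, S100a6 in Gpx2/Krt14 and Atp12a/Plet1, and S100a4 in Lor/Krt10.

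Which members mark the shaft of the growing follicle was asked by setting the Krt32/Krt31 region against the Lor/Krt10 region. S100a3, whose protein is citrullinated in cuticle cells, stood at 7517, 7898, 7536 and 6116 CPM in slices 1 to 4 of the Krt32/Krt31 region and at 1411, 1041, 1184 and 810.1 CPM in the Lor/Krt10 region. The lowest shaft value was thus far above the highest epidermal value, and the fitted log2 fold was 2.77 (SE 0.068, edgeR adjusted p = 1.5e-44). S100a14, an S100 protein of epithelial cells, stood at 1152, 1092, 1133 and 1196 CPM in Krt32/Krt31 and at 578, 518, 558 and 541 CPM in Lor/Krt10. Its groups did not overlap either, and its log2 fold was 1.10 (SE 0.058, edgeR adjusted p = 2.8e-26).

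S100a8 and S100a9 also rose in Krt32/Krt31, by log2 folds of 2.28 (SE 0.095) and 1.22 (SE 0.16), and S100a16 and S100a6 rose less, by 0.51 and 0.46. S100a4 fell by 4.14 on the log2 scale (SE 0.084), S100a11 by 1.01, S100a13 by 0.80 and S100a10 by 0.43. All 10 members passed the test, 6 higher and 4 lower in the shaft. Of the 12612 genes tested, 62.7% passed, so passing says little about these genes. The median size of the log2 difference was 1.06 for the members and 0.51 for all genes.

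Within the follicle, Krt32/Krt31 was set against Gpx2/Krt14, taken for the outer root sheath. That match is loose: the outer root sheath list stood 0.34 and 0.014 in the clusters that make up Gpx2/Krt14 and 0.61 in Atp12a/Plet1, and the basal keratinocyte list 0.84 and 0.50 against 1.21. S100a3 was 2014 ± 394 CPM (SD, n = 4 slices) in Gpx2/Krt14 and rose by a log2 fold of 1.91 (SE 0.065) in the shaft region. S100a14 rose by 0.85, S100a8 by 0.74 and S100a16 by 0.29, while S100a4 fell by 1.24, S100a11 by 0.71, S100a6 by 0.63 and S100a13 by 0.29. S100a9 (log2 fold 0.082, SE 0.12, edgeR adjusted p = 0.58) and S100a10 (-0.091, SE 0.065, edgeR adjusted p = 0.23) did not pass. The 8 members called compare with 56.4% of all genes tested. In slice 1 most Gpx2/Krt14 spots fell in a cluster of their own (271 spots, 96.7% of them from that slice), and without slice 1 the count was also 8. S100a13 was not called without slice 3 or 4 (edgeR adjusted p = 0.25 and 0.10).

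The shaft itself was then divided, by a comparison added after seeing the data, into the Krtap4 region, where genes of late shaft keratinization lead, and the Krt32/Krt31 region below it. S100a9 stood at 109.5, 129, 62.1 and 70.5 CPM in Krtap4 and at 42.7, 43.9, 22.3 and 18.5 CPM in Krt32/Krt31. No Krtap4 value fell within the range of the earlier region, and the log2 fold was 1.77 (SE 0.10, edgeR adjusted p = 5.7e-24). S100a8 stood at 430.4, 408, 335 and 269.7 CPM in Krtap4 and at 281, 278, 242 and 193 CPM in Krt32/Krt31. Its ranges overlapped across slices, but it was higher in Krtap4 in 4 of 4 slices, and its log2 fold was 0.78 (SE 0.073).

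S100a3 ran the other way, at 3705, 3554, 3311 and 2608 CPM in Krtap4, a fall by 0.91 on the log2 scale (SE 0.063), and S100a14 fell by 0.38. S100a6 rose by 0.65, S100a13 by 0.58, S100a11 by 0.49, S100a4 by 0.46 and S100a10 by 0.18, and S100a16 (-0.012, SE 0.056) did not pass. By CPM, without TMM scaling, S100a16 was lower in Krtap4 in 4 of 4 slices (984 ± 22.5 against 1174 ± 41.5 CPM, no overlap). Of the members 9 were called, 7 higher and 2 lower, against 40.6% of all genes. Scaling by library size alone lowered every log2 fold of this comparison by about 0.24 and gave 5 higher and 3 lower. S100a10 then had a log2 fold of -0.063 (edgeR adjusted p = 0.42), S100a4 one of 0.22 (edgeR adjusted p = 0.20) and S100a16, then called lower, one of -0.25. S100a10 was higher by CPM in only 1 of 4 slices and was not called by edgeR with any 1 slice left out (adjusted p = 0.19, 0.065, 0.23 and 0.69 without slices 1 to 4), and S100a4 was not called without slice 1 (edgeR adjusted p = 0.18).

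**Figure D2:**
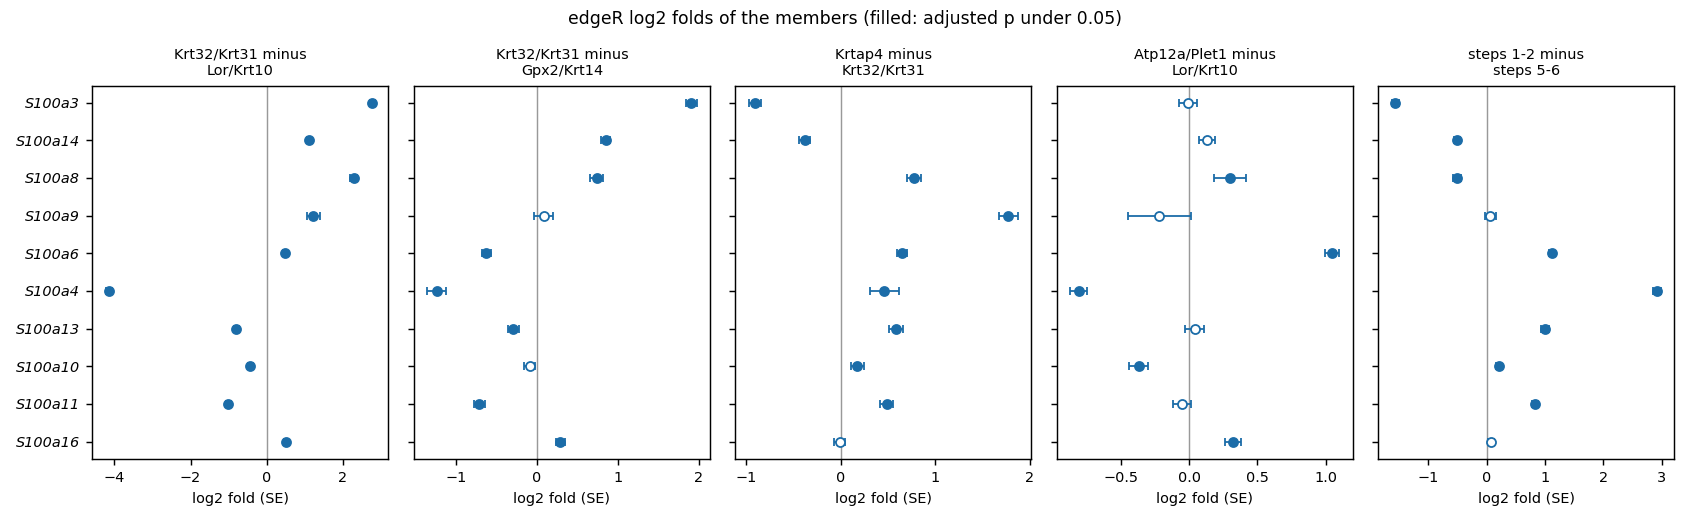
Fitted log2 fold of each member (x axis, bar: SE) in 5 comparisons, the first named minus the second, with filled points past an adjusted p of 0.05. S100a3 was above 0 in Krt32/Krt31 against both other regions and below 0 in Krtap4 against Krt32/Krt31, where S100a9 had the highest fold, 1.77.

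The order of S100a3 levels was Krt32/Krt31, Dct/Tyrp1 (4124 ± 417 CPM) and Krtap4 (3295 ± 486 CPM), the last 2 of which overlapped. Muscle spots still held 1860.0 ± 311 CPM of S100a3, 25.6% of its highest region. Other follicle genes were also present there: trichohyalin (Tchh) reached 28.7% and the inner root sheath keratin Krt71 45.0% of their highest regions, against 9.43% for Krt14 and 2.28% for Lor. The part of spilled RNA and of follicle bulbs under those spots in these levels was not tested. S100a3 was lowest in slice 4 in 9 of 9 regions and S100a8 in 7 of 9, which the fits take up with a term for the slice.

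S100a8 and S100a9 encode the calprotectin subunits, which neutrophils carry in large amounts, so their places were set beside neutrophil genes. Of the neutrophil markers, Ly6g had 0 UMIs in 91813969, which allows up to 0.0327 CPM, and Retnlg had 6, Csf3r 44, Cxcr2 31, Mmp8 3, Ngp 3, Camp 19 and Ltf 2. Only Il1r2 was frequent, with 2659 UMIs, and it peaked in Lor/Krt10 (138 CPM), where S100a8 was 53.0 ± 11.5 CPM, and was 7.78 CPM in Krtap4. Without Il1r2 the list summed to between 0.328 and 1.81 CPM in the 9 regions, and in Krtap4, where S100a8 was 361 ± 73.1 CPM and S100a9 92.9 ± 31.9 CPM, it was 0.328 CPM. In Krt32/Krt31, where S100a8 was 248 ± 40.9 CPM, the list was 1.61 ± 0.340 CPM. That overlapped with its highest region, Lor/Krt10 (1.81 ± 0.661 CPM), and the list rests on 108 UMIs in all. Macrophage genes summed to 92.4 CPM in Krtap4 and 450.3 CPM in Lor/Krt10. The pair is therefore named here by its leading region, Krtap4, and the part of myeloid cells in its levels was not tested.

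**Figure D3:**
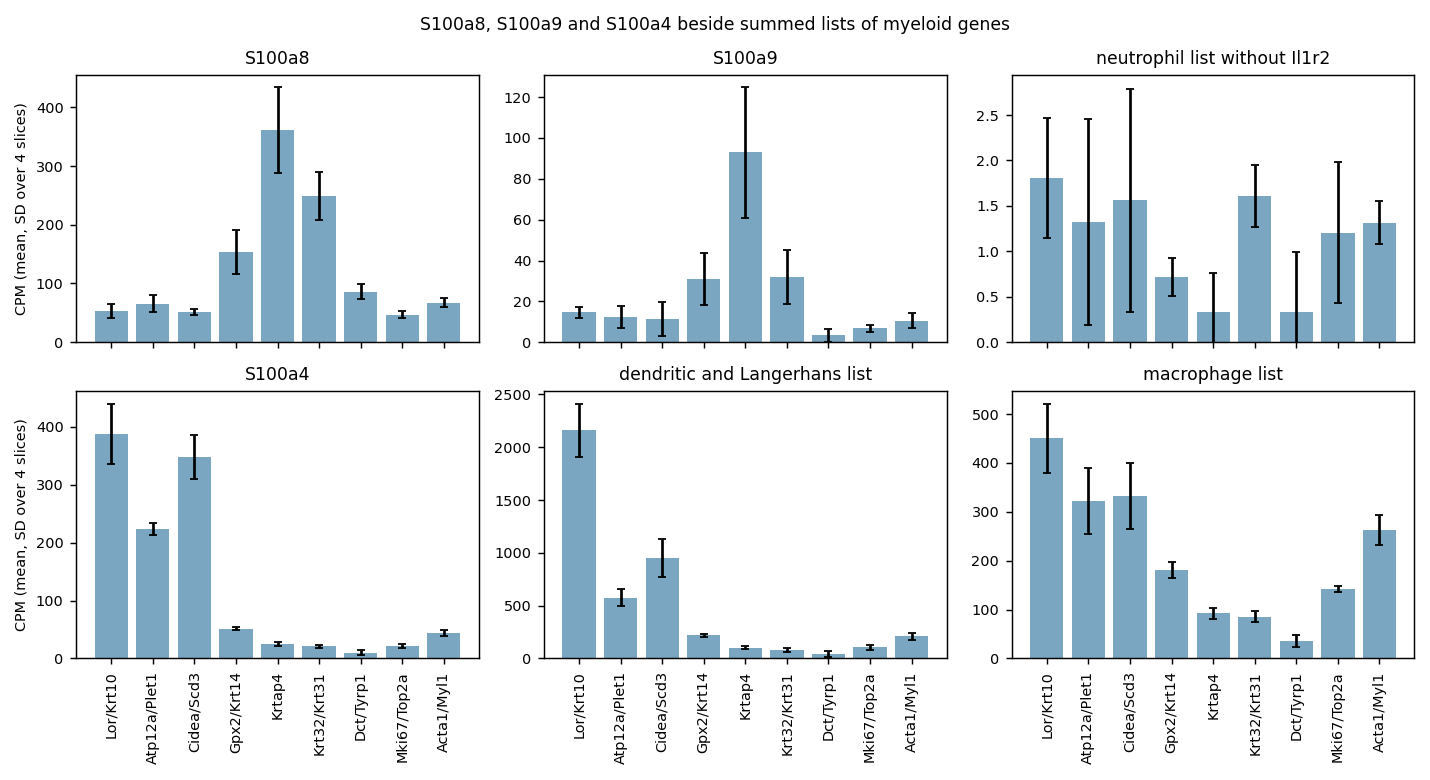
Mean level (y axis, CPM, bars start at 0, error: SD over 4 slices) of S100a8, S100a9 and S100a4 and of summed marker lists in the 9 regions (x axis). S100a8 and S100a9 were highest in Krtap4, where the neutrophil list without Il1r2 was 0.328 CPM, and S100a4 and all 3 lists were highest in Lor/Krt10. The neutrophil list was nearly as high in Krt32/Krt31 (1.61 against 1.81 CPM in Lor/Krt10).

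Spot by spot, S100a8 and S100a9 were found together with Mantel-Haenszel odds ratios, within region and depth class, of 1.86, 1.18, 1.02 and 1.75 in slices 1 to 4. All 4 ratios were above 1, but the ratio in slice 3 was close to 1. The mean log2 odds ratio was 0.49 (SD 0.43; exact two-sided sign-flip p = 0.125, the smallest that 4 slices allow). S100a8 or S100a9 with the neutrophil list gave ratios of 1.04, 1.36, 1.40 and 0.921 (mean log2 0.21, exact p = 0.375), and with the macrophage list ratios of 1.25, 1.09, 1.06 and 1.32 (mean log2 0.23, exact p = 0.125). Of the 2767 UMIs of the neutrophil list 2659 were Il1r2. Without Il1r2 the ratios were 1.30, 0.608, 0.644 and 0.857 (mean log2 -0.30, exact p = 0.375). Taken alone, S100a8 then had a mean log2 of -0.31 and S100a9 of 0.27.

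A UMI of S100a9 was found in 51.4% of Krtap4 spots (SD 10.6) and in 13.5% of Acta1/Myl1 spots (SD 4.43). The median depths of those regions were 11882 and 14168 UMIs. With every spot thinned to 5500 UMIs and shallower spots left out (48 in Krtap4, 14 in Acta1/Myl1), the shares were 29.5% and 5.05%. For S100a8 the unthinned shares were 88.8% and 57.4% and the thinned shares 76.3% and 31.5%. The muscle share is given for comparison and is not a floor, since muscle spots also held other follicle genes. In Mki67/Top2a the thinned shares were lower, at 3.39% for S100a9 and 23.7% for S100a8. S100a8 gave 4.08 UMIs for each UMI of S100a9 in Krtap4 (SD 0.95) and 8.54 in Krt32/Krt31 (SD 2.43), a description with no test.

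S100a4, known for cell motility and abundant in fibroblasts, macrophages and dendritic cells, was the member most bound to the surface. It stood at 371, 464, 368 and 348 CPM in Lor/Krt10 and at 353, 397, 308 and 334 CPM in Cidea/Scd3, which overlapped, and at 224 ± 10.8 CPM in Atp12a/Plet1. All other regions lay between 9.73 and 51.6 CPM. Between spots assigned to dermis (309 ± 24.6 CPM) and to epidermis (301 ± 53.5 CPM) it gave a log2 fold of 0.038 (SE 0.11, edgeR adjusted p = 0.85, epidermis minus dermis), so these spots did not place it in either layer. Against muscle (44.3 ± 6.31 CPM) the dermal spots were higher by a log2 fold of 2.67 (SE 0.12, edgeR adjusted p = 1.3e-26).

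Inside the Lor/Krt10 region, spots above their slice median for antigen-presenting genes (Cd207, Cd74, H2-Aa, H2-Ab1 and H2-Eb1) held 469 ± 72.4 CPM of S100a4 and the others 298 ± 27.3 CPM, higher in 4 of 4 slices (exact sign-flip p = 0.125). Splits by macrophage genes (473 against 289 CPM) and by dermal fibroblast genes (468 against 299 CPM) went the same way in 4 of 4 slices. Spots above the median for cornified genes held less, 297 against 473 CPM. In the neighbouring Atp12a/Plet1 region cornified genes went with more S100a4 (268 against 190.2 CPM, 4 of 4 slices), as did antigen-presenting genes (247 against 198 CPM, 4 of 4), while the splits by macrophage genes (227 against 219 CPM) and by fibroblast genes (232 against 214 CPM) were positive in 2 of 4 slices. The splits share spots and were added after seeing the data, and which cell type carried the RNA was not tested. The genes most like S100a4 over the 12 clusters were Cd74 (r = 0.98), H2-Eb1 (r = 0.98) and Tgfbi (r = 0.98), a description of pooled clusters that share libraries.

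Fibroblast-rich and keratinocyte-rich spots were compared for all members, and S100a6 differed most. S100a11, S100a14 and S100a10 were higher in the epidermal spots by log2 folds of 0.33, 0.21 and 0.19, and S100a6, S100a8 and S100a3 fell by 0.73, 0.46 and 0.33. S100a3 stood at 1093 CPM in the epidermal and 1436 CPM in the dermal spots, against 1860 CPM in muscle spots. S100a8 stood at 52.5 and 75.5 CPM, against 69.1 CPM in muscle. Values of both genes overlapped between epidermal and dermal spots. Inside Lor/Krt10, spots above the median for matrix and shaft genes held more S100a3 (1355 against 864 CPM) and S100a8 (64.2 against 41.8 CPM). Both held in 4 of 4 slices. By fibroblast genes S100a3 was higher in 2 and S100a8 in 3 of 4 slices. The 6 calls stand against 22.0% of all genes, and library size alone gave 1 higher and 4 lower. Without the slice term 2 members were called, and with slices 1 to 4 left out in turn it was 3, 2, 4 and 6. Within regions, S100a6 did not follow dermal fibroblast genes in a single direction. Spots above the slice median for them held 3073 against 2839 CPM in Lor/Krt10, higher in 4 of 4 slices. They held less in Atp12a/Plet1 (5693 against 6689 CPM), Cidea/Scd3 (3793 against 4383 CPM) and Acta1/Myl1 (1902 against 2057 CPM). Each of these was higher in 0 of 4 slices. In dermal against muscle spots 6 members were called against 47.5% of all genes. S100a4, S100a6 (1.03), S100a13 (0.71), S100a11 (0.60) and S100a10 (0.41) were higher in dermis, and S100a3 fell by 0.49.

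S100a6, known as calcyclin, was highest in Gpx2/Krt14 at 6536, 6571, 6271 and 5886 CPM and in Atp12a/Plet1 at 6187, 6454, 6113 and 5974 CPM, and the values of these regions overlapped. In Lor/Krt10 it stood at 3226, 2882, 2943 and 2801 CPM, below every value of both. Its lowest region was Mki67/Top2a, of dividing cells, at 1559 ± 172 CPM. The upper follicle region set against the epidermal region gave S100a6 a log2 fold of 1.05 (SE 0.053, edgeR adjusted p = 1.3e-26). S100a16 rose by 0.32, with groups that did not overlap, and S100a8 by 0.30, with groups that did (edgeR adjusted p = 0.047). The call of S100a8 was lost without slice 1, 2 or 3 (edgeR adjusted p = 0.092, 0.24 and 0.083). S100a4 fell by 0.81 and S100a10 by 0.37. The other 5 members did not pass, among them S100a3, at 1115 ± 253 and 1111 ± 252 CPM (log2 fold -0.010, SE 0.066). The 5 calls compare with 28.4% of all genes. In regions assigned by marker lists S100a4 gave -0.18 (edgeR adjusted p = 0.24), and 3 members were called.

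S100a10, the annexin A2 partner p11, and S100a11, which binds annexin A1 and is taken into the cornified envelope, lie in the second block and had their highest means in Lor/Krt10. S100a11 stood at 356, 360.4, 349 and 352 CPM there, which overlapped with Atp12a/Plet1 (359, 314, 341 and 370.4 CPM), and at 165, 163, 168 and 189 CPM in Krt32/Krt31. The Lor/Krt10 values lay in a narrow band, well clear of the shaft values. S100a10 stood at 431, 413, 364 and 399 CPM in Lor/Krt10, overlapping with Dct/Tyrp1 (394 ± 24.7 CPM), and at 245 ± 7.81 CPM in Mki67/Top2a, its lowest region. S100a13, which aids the release of FGF1 and interleukin 1 alpha, was 208 ± 34.3 CPM in Cidea/Scd3, overlapping with Atp12a/Plet1 (177, 173, 205 and 157 CPM), and 65.4 ± 0.853 CPM in Mki67/Top2a. S100a16, an S100 protein of broad expression, ranged only from 747 ± 38.3 CPM in muscle to 1174 ± 41.5 CPM in Krt32/Krt31.

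Distance from the epidermis was counted in grid steps from the nearest Lor/Krt10 spot, which is step 0, and gave each member a depth profile. S100a4 fell from 388 ± 52.0 CPM at step 0 to 266 at step 1, 96.3 at step 2 and 21.3 ± 3.45 CPM at step 5. S100a10 and S100a11 were also highest at step 0 in 4 of 4 slices. S100a13 peaked at step 1 (185 ± 22.3 CPM) and S100a6 at step 2 (6516 ± 247 CPM), in 4 of 4 slices each. S100a8 (280.2 ± 43.7 CPM) and S100a9 (56.8 ± 23.1 CPM) peaked at step 4 on average and at step 3 or 4 in each slice. S100a3 (5083 ± 612 CPM) and S100a14 (965 ± 62.3 CPM) peaked at step 5 in 4 of 4 slices. The members thus reached their highest level at 5 different depths, S100a16 being nearly flat (737 to 1047 CPM).

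**Figure D4:**
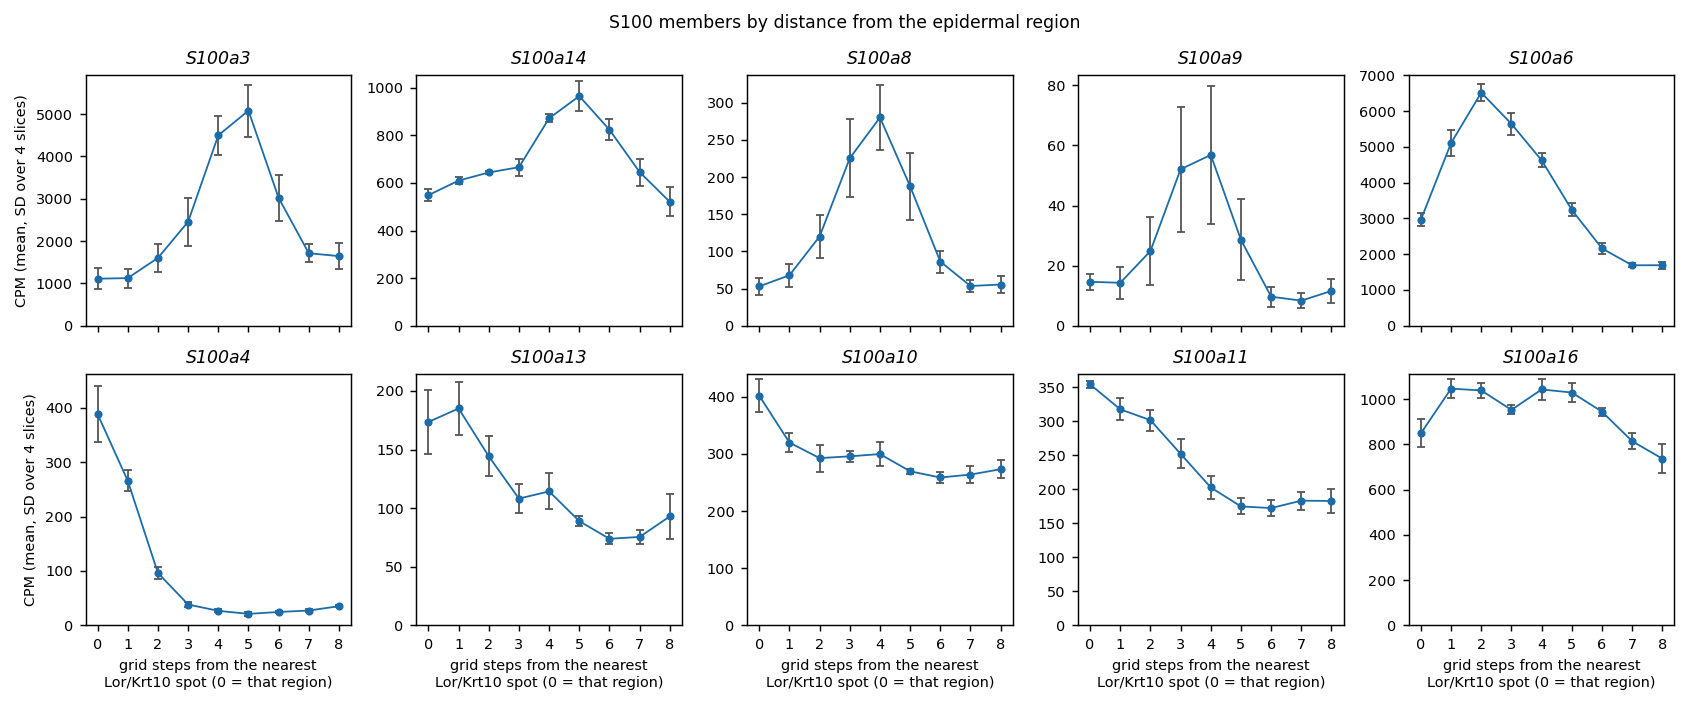
Level of each member (y axis, CPM, mean and SD over 4 slices) by grid steps from the nearest Lor/Krt10 spot (x axis, 0 is that region). S100a4 was highest at step 0, S100a6 at step 2, S100a8 and S100a9 at step 4 and S100a3 and S100a14 at step 5.

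Spots at steps 1 to 2 were then tested against spots at steps 5 to 6. S100a4 (log2 fold 2.92, SE 0.065), S100a6 (1.12), S100a13 (1.00), S100a11 (0.83) and S100a10 (0.20) were higher near the epidermis. S100a3 fell by 1.56 (SE 0.061), and S100a14 and S100a8 each by 0.51. S100a9 (log2 fold 0.064) and S100a16 (0.075) did not pass. The 8 calls stand against 71.5% of all genes. S100a9 peaks between the 2 bands, and against steps 3 to 4 it was lower near the epidermis, with a log2 fold of -1.58 (SE 0.085).

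The genes most like each member over the 12 clusters were taken from 10796 genes by Pearson correlation of mean log2(CPM + 1). This describes pooled clusters that share libraries and is no separate evidence from the levels by region. Among S100a3, S100a8, S100a9 and S100a14, r was 0.80 for S100a8 with S100a9, 0.74 for S100a3 with S100a8 and 0.72 for S100a3 with S100a14. It was 0.55 for S100a8 with S100a14, 0.27 for S100a3 with S100a9 and 0.083 for S100a9 with S100a14. S100a3 was nearest Krtap11-1 (r = 0.98), Krt32 (0.96) and Tgm3 (0.95), S100a8 nearest Krtap8-1 (0.98), Tmem229b (0.98) and Asl (0.97), and S100a9 nearest Krtap14 (0.98), Krtap17-1 (0.98) and Krtap3-1 (0.98). For S100a14 they were Crybg2 (0.94), Snx3 (0.93) and Ap1m2 (0.92), and for S100a6 Alcam (0.96), Atp6v0a2 (0.96) and Spsb2 (0.95). For S100a11 they were Tmsb4x (0.96), Slc2a1 (0.96) and Tpm3 (0.95), for S100a13 Map1lc3a (0.96), Qsox1 (0.95) and Foxj2 (0.95), for S100a10 Rgs10 (0.89), Ostf1 (0.88) and Wdfy2 (0.87), and for S100a16 Aplp2 (0.93), Spty2d1 (0.91) and Ttc22 (0.87).

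Of 9 further names, other S100 genes and the S100P-binding protein S100pbp, which is not of the family, 8 were found. Those with enough UMIs to be tested were S100a1, S100a7a, S100b and S100pbp. S100a7a, the psoriasin gene next to S100a8, was 498 ± 22.5 CPM in Krtap4 and 184 CPM in Krt32/Krt31, a log2 fold of 1.68. In that comparison S100a9 rose by 1.77 and S100a8 by 0.78. S100a1 was highest in Gpx2/Krt14 (459.6 ± 34.1 CPM). S100b (log2 fold 1.66), S100a1 (0.83) and S100pbp (0.51) also passed the test of Krtap4 against Krt32/Krt31, all higher in Krtap4. Of all genes tested there, 40.6% passed. S100a5, S100g and S100z had 1, 3 and 7 UMIs.

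Of 7 S100-fused genes 3 were higher and 3 lower in the shaft region, in a comparison that 62.7% of all genes passed. In Krt32/Krt31 against Lor/Krt10, Flg (log2 fold -7.24), Flg2 (-6.52) and Hrnr (-4.83), of the cornified layer, were lower, and Tchh (2.02), Crnn (1.70) and Tchhl1 (0.56) were higher, with Rptn (0.19) not past the test. Tchhl1 reached 2849 CPM and Crnn 1823 CPM in Krtap4, where both were higher than in Krt32/Krt31 by log2 folds of 2.87 and 1.48.

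Of 11 partners and receptors 10 were tested in that comparison, and all passed, 4 higher and 6 lower in the shaft region. Of all genes tested there 62.7% passed, so passing says little about these genes. Padi3, the deiminase that acts on S100a3, rose by 2.25 and was highest in Krt32/Krt31 (1482 ± 77.5 CPM), the same region as S100a3. Between Krtap4 and Krt32/Krt31 Padi3 did not pass (log2 fold 0.048, edgeR adjusted p = 0.59), whereas S100a3 fell by 0.91. By depth Padi3 peaked at step 4 and S100a3 at step 5, each in 4 of 4 slices. Anxa1 rose by 1.08, while S100a11, its partner, fell by 1.01. Anxa2, the partner of S100a10, fell by 1.65 (S100a10 fell by 0.43), and Anxa5, Anxa6 and Ahnak also fell, by 1.55, 1.55 and 1.13. The receptors of secreted calprotectin were scarce, with 117 UMIs for Ager and 210 for Tlr4.

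As a further view of the spread, each slice was divided by position into 3 strips, added after seeing the data, and UMIs were summed over slices within a strip. Position was taken along the grid direction in which the regions changed most. The labels do not tie strips to mice. S100a3 in Krt32/Krt31 was 6420.5, 8119 and 7025 CPM in strips 1 to 3, and S100a9 in Krtap4 was 93.2, 82.2 and 110.9 CPM. S100a6 in Atp12a/Plet1 was 6912, 6186 and 4948 CPM, with an SD of 993 over strips and 202 over slices. S100a4 in Cidea/Scd3 was 420, 353 and 212 CPM, with SDs of 106 and 37.6. Elsewhere the strips differed less than the slices, as for S100a10 in Atp12a/Plet1 (SD 11.9 against 27.6). The highest region was the same in 3 of 3 strips for 7 members, and in 2 of 3 for S100a6, S100a10 and S100a11. With strips as the units of the edgeR fit, all 10 members again passed in Krt32/Krt31 against Lor/Krt10. In near against far spots S100a8 (log2 fold -0.48, edgeR adjusted p = 0.25) and S100a10 (edgeR adjusted p = 0.15) were no longer called, nor was S100a8 in the upper follicle against the epidermis (edgeR adjusted p = 0.21). S100a4 and S100a10 were not called in Krtap4 against Krt32/Krt31 (edgeR adjusted p = 0.14 and 0.20), S100a13 not in Krt32/Krt31 against Gpx2/Krt14 (edgeR adjusted p = 0.067), and S100a14 and S100a10 not in epidermal against dermal spots (edgeR adjusted p = 0.062 and 0.16).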

How the data were processed

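Polyadenylated RNA of 4 slices of dorsal skin was measured with a spatial expression kit. The deposited matrices hold UMI counts per gene and spot, made by the authors with Space Ranger 2.0.1 (per the file headers) on mm10 (per the labels' processing notes). Depth was 19393026 to 26910422 UMIs per slice, which limits low members such as S100a9 (2325 UMIs). Intervals and floors cover counting error only.

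Spots with at least 250 genes were clustered with Seurat 5.3.0 (2000 variable genes, 30 components, 20 neighbours), S100 genes left out, at the lowest resolution, in steps of 0.05, that gave 12 clusters. A mixed shallow cluster and a nerve cluster (128 and 19 spots) were not compared. Of the Gpx2/Krt14 spots, 271 came from a cluster with 96.7% of its spots in slice 1. The planned dermal contrasts had no dermal cluster and use spots assigned to the marker list with the highest z score. For each region the UMIs of a slice were added up, and these sums entered edgeR 4.0.16 (quasi-likelihood, TMM, filterByExpr, slice as a block, 1 fit over all regions), with Benjamini-Hochberg adjustment over all genes and an adjusted p of 0.05 as threshold. The script was tested on simulated data of the Krt32/Krt31 against Lor/Krt10 comparison (12503 genes, of which 200 were given a log2 change of 1): 84.4% of these were recovered and 7.18% of calls were false, more than the threshold of 0.05 aims at. In the measured comparison 62.7% of genes passed and 26.1% had an absolute log2 fold of at least 1. The simulated rates therefore do not carry over to it. Slice numbers pair the region sums because these come from the same sections; deviations of a slice correlated at 0.0692 to 0.200 on average across regions. Fold changes are relative to TMM scaling. Named genes were the members, other S100 genes, S100-fused genes, partners and receptors, marker lists and, per member, the 3 genes with the most alike pattern (at least 10 CPM in 1 cluster). Promoters came from RefSeq and positions from GENCODE M21, both on GRCm38.

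The members and lists were chosen with earlier results of these data known. Alternatives were no slice block, DESeq2 1.42.0, library size alone, no count filter, no keratin genes, each slice left out, 8 or 16 clusters, clustering with all genes, regions from marker lists, at least 1000 genes per spot, and, after seeing the data, strips as units.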

Additional observations from a re-analysis of the deposited data

Results flagged for a closer look

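In 6 of 90 combinations of a member and a region, 1 slice lay apart from the other 3 (Dixon's test at the 95% level). Chance flags about 1 in 20 such groups. Slice 4 stood low for S100a3 in Acta1/Myl1, at 1395 CPM against 1999 to 2046 CPM in the other slices, and for S100a4 in Gpx2/Krt14, at 47.0 CPM against 52.8 to 53.5 CPM. Slice 2 stood low for S100a8 in Dct/Tyrp1, at 67.8 CPM against 90.3 to 93.8 CPM, and high for S100a16 in Gpx2/Krt14, at 1038 CPM against 972 to 982 CPM. Slice 1 stood high for S100a9 in Mki67/Top2a, at 9.27 CPM against 5.79 to 6.05 CPM, and slice 3 for S100a14 in Acta1/Myl1, at 519 CPM against 487 to 491 CPM.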

How the results depend on the processing

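The 10 calls in Krt32/Krt31 against Lor/Krt10 were 10 under every alternative run. Over 970 values of a member under an alternative, 898 kept their side of the threshold and, apart from 26 that were called in neither, their direction, 52 lost the call, 12 gained it and 8 reversed. In epidermal against dermal spots the 6 calls became 2 without the replicate block and 2 to 6 with a slice left out; in upper follicle against epidermis the 5 calls became 3 with regions from marker lists and 4 to 5 with a slice left out. The other ranges with a slice left out were 7 to 8 (Krt32/Krt31 against Gpx2/Krt14), 7 to 8 (Krtap4 against Krt32/Krt31), 6 to 6 (dermis against muscle) and 8 to 8 (near against far). Without the replicate block the counts were 8 (Krt32/Krt31 against Gpx2/Krt14), 8 (Krtap4 against Krt32/Krt31), 4 (upper follicle), 6 (dermis against muscle) and 7 (near against far), within 1.5 times.

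Reversed log2 folds were S100a9 in Krt32/Krt31 against Gpx2/Krt14 with 16 clusters (-0.32) and S100a10 there with clustering on all genes (0.16); S100a8 in upper follicle against epidermis with 8 clusters (-0.042); S100a9 near against far with regions from marker lists (-0.95) and, for steps 1 to 2 against 3 to 4, S100a9 (-1.58) and S100a10 (-0.068); and S100a10 in Krtap4 against Krt32/Krt31 with library size alone (-0.063) and with clustering on all genes (-0.044). The cause was not tested. The mean log2 odds ratio of S100a8 or S100a9 with the neutrophil list turned to -0.44 with no strata, -0.15 in thinned spots and -0.30 without Il1r2, and with the macrophage list to -0.093 with no strata and -0.011 with regions from marker lists, none of which could pass at 4 slices.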
